A study of Populus davidiana with 6 samples.

Results

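Loci whose transcript level was lower in every air-dried leaf library than in any control library were selected from the leaf transcriptome of Populus davidiana cultivar Palgong2, an aspen that the labels class as drought tolerant. Transcript values were summed per locus, and a locus was chosen by its FPKM values (fragments counted per transcript, scaled to transcript length and library size) in all 6 libraries. It had to carry at least 1 transcript with a POPTR accession, span 500 to 8000 bases of genome, average at least 5 and under 300 FPKM in control leaves, and have a highest air-dried value of at most 0.65 times its lowest control value. Of 40537 loci, 13005 met every part of this rule except the last, and 102 met all of it (0.784% of the 13005). At 2 of the 102 the rule held only as 0 against 0, and the other 100 are called the lowered loci below.

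The study compared 3 control with 3 air-dried libraries of leaf poly(A) RNA. All plants came from internode culture on sugar-containing medium with the auxin naphthalene acetic acid and were about 6 weeks old. The air-dried plants were pulled out of the medium, rinsed with sterile water and kept in open air for about 10 min. How control plants were handled was not given in the sources used here. Pulling, rinsing and drying are therefore compared with the control state as a whole. The labels speak of triplicate leaf samples without naming separate plants, and the spread between libraries may be technical.

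The level of a messenger RNA is set by how fast it is made and how fast it is broken down, so a level can fall within minutes only where the RNA is short-lived or is actively removed. When a leaf loses water its cells lose turgor and abscisic acid, the main drought hormone of plants, builds up and closes the stomata. Genes for growth and cell expansion are commonly turned down under drought, while protective genes are turned up. Which of these kinds the lowered loci belong to was not analysed here, because no gene name or product stands beside a locus. Loci are therefore given by position. The genome build was not given in the sources used here. For lack of names the leaf label was not checked against marker genes. In leaf tissue as a whole, fewer cells of a type and less RNA per cell cannot be told apart.

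The lowered loci ranged from weakly to strongly expressed, and most of the falls were between 1.62- and 3-fold. The lowered loci had a median of 21.3 FPKM in control leaves (range of locus means 5.23 to 228) and of 10.2 FPKM in air-dried leaves (1.78 to 127). The ratio of the air-dried to the control mean ran from 0.208 to 0.618 with a median of 0.479, whereas the 13005 loci that met the rest of the rule had a median ratio of 1.06. In 57 of the 100 the air-dried mean was at least 2-fold lower, in 12 at least 3-fold, in 4 at least 4-fold and in none 5-fold. These sizes follow from the choice of the loci and are descriptions. In the limma fit across the 22729 loci that reached 1 FPKM in 3 or more libraries, all 100 were called lower (adjusted p under 0.05 by Benjamini-Hochberg), against 2.81% of all tested loci. The rule used this contrast, so nothing is read from that count. By the same ratio in the opposite direction, 286 of the 13005 loci were higher in air-dried leaves.

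**Figure D1:**
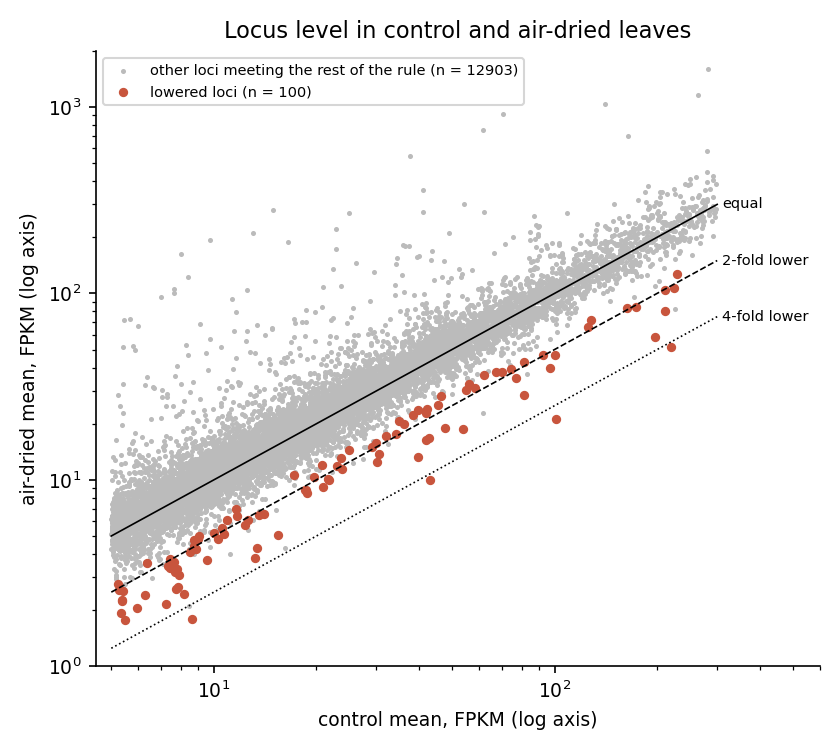
Mean FPKM of each locus in air-dried (vertical) against control leaves (horizontal), both on log axes, with 3 libraries per group. Red points are the 100 lowered loci, with ratios from 0.208 to 0.618, and grey points are the other loci that met the rest of the rule and had an air-dried mean above 0. The lines mark equal, 2-fold lower and 4-fold lower means.

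The locus with the lowest ratio, annotated as POPTR_0005s22280 and a single transcript, lies on the minus strand of chromosome 5 at 21253478 to 21255127. Control replicates 1, 2 and 3 read 9.15, 8.03 and 8.67 FPKM there, and air-dried replicates 1, 2 and 3 read 2.00, 1.73 and 1.66 FPKM, a 4.80-fold lower mean. Values are given in this order of replicates throughout. The values lay close together within each group. POPTR_0004s17810, on the plus strand of chromosome 4 at 17844923 to 17845770, had nearly the same ratio at a far higher level. It stood at 119, 66.3 and 117 FPKM in control leaves and at 26.0, 18.1 and 19.2 FPKM in air-dried leaves, a 4.78-fold lower mean. Its control replicate 2 was far below the other controls, so the size of its fall is less certain (control SD 29.9 on a mean of 101, n = 3). The third 4-fold fall, on chromosome 19 at 15328870 to 15331637, went from 43.0, 38.4 and 47.5 FPKM to 11.3, 9.11 and 9.46 FPKM. The fourth, on chromosome 2 at 22447102 to 22447777, went from 250.1, 168 and 242 FPKM to 44.1, 51.5 and 59.4 FPKM. This last one was also among the 6 most abundant of the lowered loci in control leaves.

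Further 3-fold falls were seen at loci of low level. On chromosome 9 at 1242309 to 1246446, FPKM went from 13.0, 13.0 and 13.6 to 4.44, 3.50 and 3.53, and on chromosome 12 at 11178429 to 11180655 from 8.80, 8.07 and 7.59 to 2.70, 2.59 and 1.99. On the minus strand of chromosome 7, the locus at 9525535 to 9526922 went from 6.33, 6.53 and 8.87 FPKM to 2.57, 1.99 and 1.93 FPKM. At each of these 3 the gap between the groups was wider than the range within either. On chromosome 5, FPKM went from 12.9, 13.7 and 13.6 to 4.96, 3.34 and 4.62 at 4002022 to 4006779, and from 5.02, 6.55 and 4.86 to 1.60, 1.32 and 2.42 at 12216707 to 12218855. The latter locus lay near the lower level limit of the rule. Relative to its mean, it varied most of these 5 among air-dried libraries (SD 0.572 on a mean of 1.78, n = 3). It also lies within a locus of 229736 bases on the opposite strand, which averaged 5587 FPKM in control and 5873 FPKM in air-dried leaves. How far reads of that long locus enter its values was not tested.

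A locus on chromosome 2 at 22451210 to 22452035 had the least even control values of all 100. It stood at 308, 145 and 139.8 FPKM in control leaves and at 80.6, 42.8 and 52.6 FPKM in air-dried leaves, so that replicate 1 was the highest in both groups. Most of its signal, 87.7% in control and 80.5% in air-dried leaves, was assigned to 1 assembled transcript covering 358 bases of genome. FPKM is imprecise for so short a transcript. Without control replicate 1 its fitted log2 change went from -1.68 to -1.31.

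**Figure D2:**
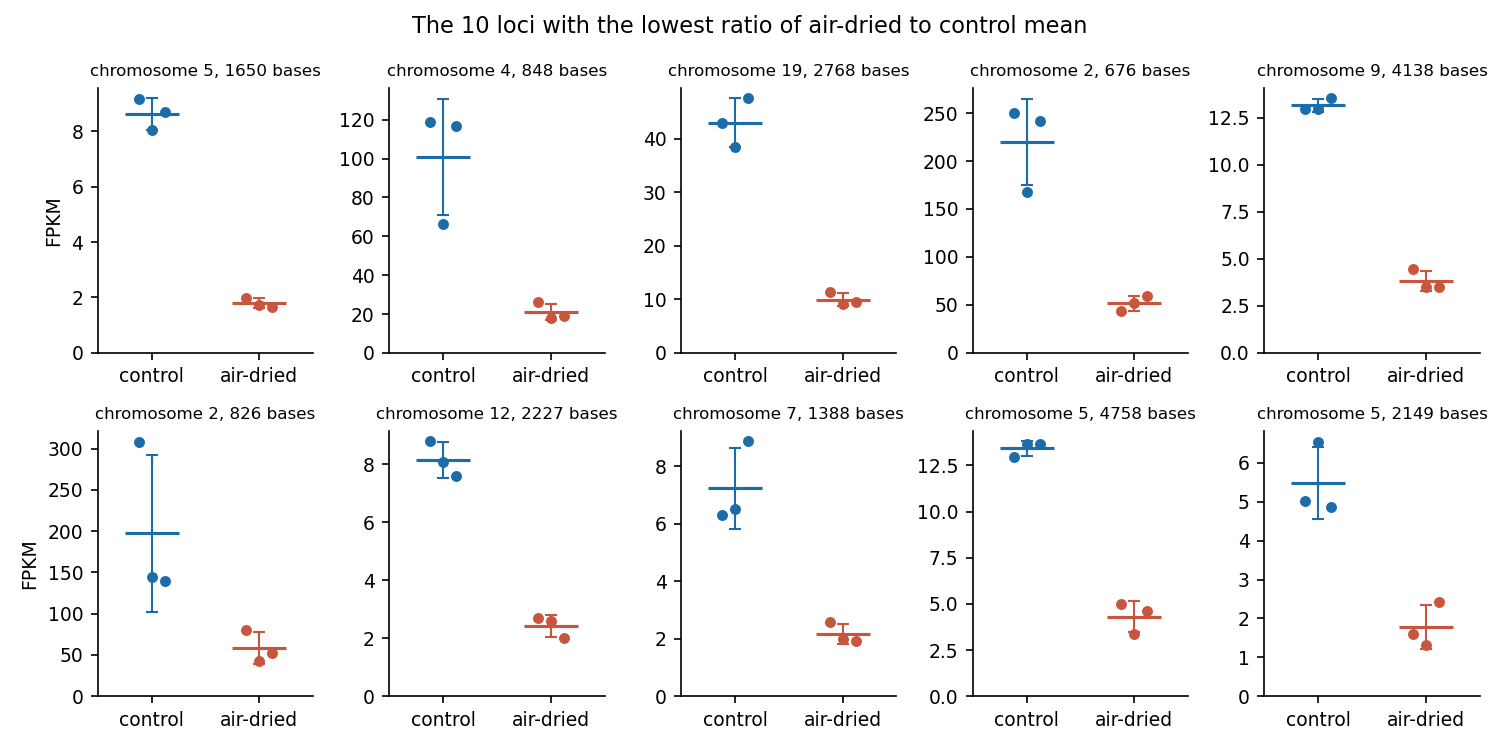
FPKM in each library (points) with the mean (line) and SD (bar) of the 3 control (blue) and 3 air-dried (red) libraries, for the 10 lowered loci with the lowest ratio, each vertical axis starting at 0. The groups do not overlap at any of the 10, as the rule requires, and the controls of the 848-base locus on chromosome 4 and the 826-base locus on chromosome 2 are the most spread out.

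The 2 loci that met the rule only as 0 against 0 were unevenly expressed in control leaves. On chromosome 12 at 956677 to 957301, FPKM was listed at 0, 4.74 and 11.0 in control replicates 1, 2 and 3 and at 0 in every air-dried library. On chromosome 15 at 4798517 to 4805801, it was listed at 0, 0 and 16.5 in control leaves and at 0 in every air-dried library. One control library alone thus brought the second locus over the level limit, and no fold is given for either. Neither passed the filter of 1 FPKM in at least 3 libraries.

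Apart from the pair on chromosome 2 already described, the most abundant lowered loci had ratios of 0.381 to 0.555. The locus on chromosome 19 at 10077789 to 10079764 had the highest control level and stood at 234, 234 and 217 FPKM in control leaves and 111, 129 and 139 FPKM in air-dried leaves (ratio 0.555). On chromosome 6 at 11847226 to 11848298, FPKM went from 246, 203 and 226 to 105, 109.6 and 104 (ratio 0.473). The air-dried values of this locus differed little among themselves, while its controls ranged more widely. On chromosome 13 at 15131922 to 15133908, FPKM went from 207, 243 and 184 to 65.4, 85.2 and 90.8 (ratio 0.381), and on chromosome 4 at 18205023 to 18206765 from 199, 236 and 197 to 105, 109 and 98.4 (ratio 0.493). Over the 16 lowered loci with control means of at least 80 FPKM the median ratio was 0.479. It was 0.427 over the 29 with control means under 10 FPKM and 0.540 over the 17 between 40 and 80 FPKM, so size of fall and level showed no single order.

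Short loci and loci with few transcripts were lowered at larger shares than long loci and loci with many transcripts. The median genomic span was 2388 bases for the lowered loci and 3581 bases for the 13005. Of loci spanning 500 to 1000 bases, 11 of 551 were lowered (2.00%), of those over 1000 and up to 2000 bases 30 of 1799 (1.67%), of those over 2000 and up to 4000 bases 39 of 5265 (0.741%) and of those over 4000 and up to 8000 bases 20 of 5390 (0.371%). The 11 shortest lowered loci had a median ratio of 0.346, against 0.471, 0.516 and 0.479 in the longer classes, and 10 of them carried 1 transcript. Their control libraries were also the least even: the median coefficient of variation among controls was 16.3%, against 7.69%, 7.03% and 5.74% in the longer classes. All 551 loci of this shortest class had a similar median of 15.6%. The rule sets the highest air-dried against the lowest control value, so a locus with spread-out libraries can meet it only with a lower ratio of means. The ratios of the span classes are therefore a description, and the part of the spread in them, or in which short loci met the rule, was not tested.

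Number of transcripts showed the same order. Of loci with 1 transcript 34 of 2393 were lowered (1.42%), with 2 transcripts 32 of 2628 (1.22%), with 3 transcripts 16 of 2186 (0.732%), with 4 to 5 transcripts 13 of 2960 (0.439%) and with 6 or more 5 of 2838 (0.176%). Span and number of transcripts go together, and setting one against the other gave an uneven picture. Among loci up to 2000 bases, 1.73% of those with 1 or 2 transcripts and 1.81% of those with 3 or more were lowered, the latter share from 7 of 386 loci. Among longer loci the shares were 1.05% (32 of 3057) and 0.355% (27 of 7598). By level, the share was lowest at control means of 10 to 20 FPKM (0.475%, 19 of 4001) and highest at 80 FPKM and above (1.46%, 16 of 1098).

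**Figure D3:**
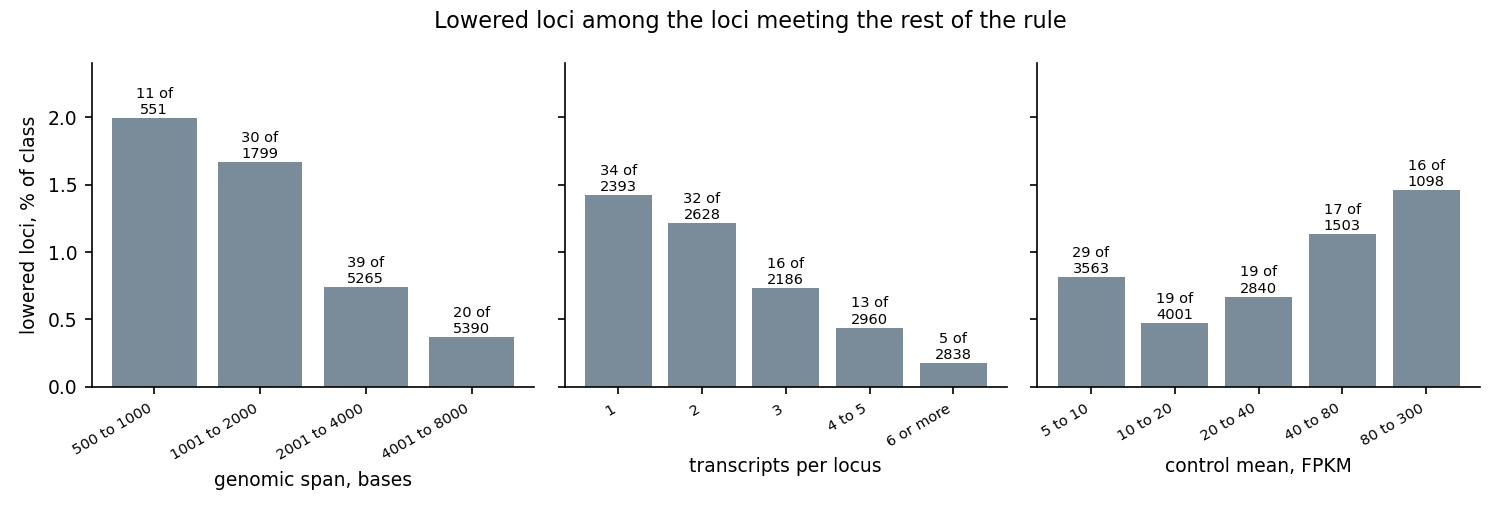
Share of loci that are lowered loci, in percent of all loci meeting the rest of the rule, by genomic span (left), transcripts per locus (middle) and control mean (right), with the numbers over each bar. The share drops from 2.00% to 0.371% with span and from 1.42% to 0.176% with number of transcripts, and shows a dip at 10 to 20 FPKM.

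The rule required every air-dried library to be low, and the values per library describe the loci it chose. The median of the library value over the control mean was 0.499 in air-dried replicate 1, 0.463 in replicate 2 and 0.481 in replicate 3, against 1.09, 1.02 and 1.04 over the 13005 loci. Replicate 1 was thus the highest of the air-dried libraries in both sets, and it held the highest air-dried value at 53 of the 100 lowered loci and at 52.8% of the 13005. The median coefficient of variation was 8.87% among air-dried libraries (9.06% over the 13005) and 7.11% among controls (7.85% over the 13005). At 5 lowered loci control replicate 2 was over 20% below both other controls, 4 of them spanning up to 1000 bases, and over the 13005 loci the same was true of 6.69%.

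Within loci, most transcripts with measurable signal in control leaves were lower too. The 66 lowered loci with several transcripts held 219 transcripts, of which 132 averaged at least 1 FPKM in control leaves. At 90 of the 132 every air-dried value lay below every control value, and the opposite was seen at 0. The rule fixed a lower sum over transcripts, and the limit on control level leaves out transcripts near 0 in control leaves that could rise. Nothing is therefore read from that 0. Over transcripts of the same kind in all loci meeting the rest of the rule, 7.68% were lower in this way. The opposite was seen at 2545 of those 23319 transcripts. Because the rule fixed the sum, lower transcripts had to be common among the lowered loci, and nothing is read from the difference in shares. The share was 52 of 62 for annotated transcripts and 38 of 70 for transcripts assembled from the reads, with median ratios of 0.487 and 0.443. Over all loci meeting the rest of the rule the shares were 8.94% and 6.74%, with median ratios of 1.04 and 1.00. The difference between the classes was not tested. Of the 46 lowered loci with at least 2 such transcripts, 17 had all of them lower, 27 had some and 2 had none. This split was not compared with other loci, and nothing is read from it. Fragments shared by overlapping transcripts are divided between them by estimation, which makes single transcripts less certain than their sum.

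The leading transcript of the controls was not the leading one in air-dried leaves at 4 of the lowered loci. At the locus on chromosome 6 at 17996366 to 17997876, an assembled transcript covering 1511 bases of genome went from 24.9, 19.8 and 20.9 FPKM to 3.59, 0.000484 and 12.3 FPKM. The annotated transcript, covering 1263 bases of genome, went from 19.4, 19.8 and 23.5 FPKM to 13.8, 11.1 and 9.50 FPKM. The annotated transcript therefore made up 48.8% of the locus in control and 68.4% in air-dried leaves, though the assembled one was uneven in air-dried libraries. On chromosome 16 at 12184909 to 12187259, an assembled transcript went from 6.44, 4.14 and 7.02 FPKM to 2.57, 2.505 and 1.45 FPKM. Its annotated partner stood at 4.93, 6.31 and 5.16 FPKM in control and at 4.75, 3.91 and 5.82 FPKM in air-dried leaves, where the groups overlapped. The fall of that locus lay mainly in the assembled transcript.

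At the other 2 such loci, both on chromosome 5, the annotated transcript had the largest drop in FPKM. At 12216707 to 12218855, the locus within a far stronger one on the opposite strand, it went from 2.15, 3.24 and 3.14 FPKM to 0.273, 0.441 and 0.568 FPKM. An assembled transcript covering 2149 bases of genome there stood at 2.87, 3.13 and 1.33 FPKM and then at 1.33, 0.878 and 1.85 FPKM. At 12641073 to 12644116 the annotated transcript went from 9.16, 9.49 and 8.19 FPKM to 3.75, 2.31 and 2.97 FPKM. There, an assembled transcript covering 3044 bases of genome was high in replicates 1 and 3 and low in replicate 2, in both groups alike. Another with the same start and end was high only in replicate 2. On the opposite strand this locus is overlapped by loci at 12642367 to 12643131 (mean 29.3 to 18.9 FPKM, groups overlapping) and at 12643473 to 12644117 (mean 12.9 to 5.42 FPKM). Their part in its values was not tested.

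**Figure D4:**
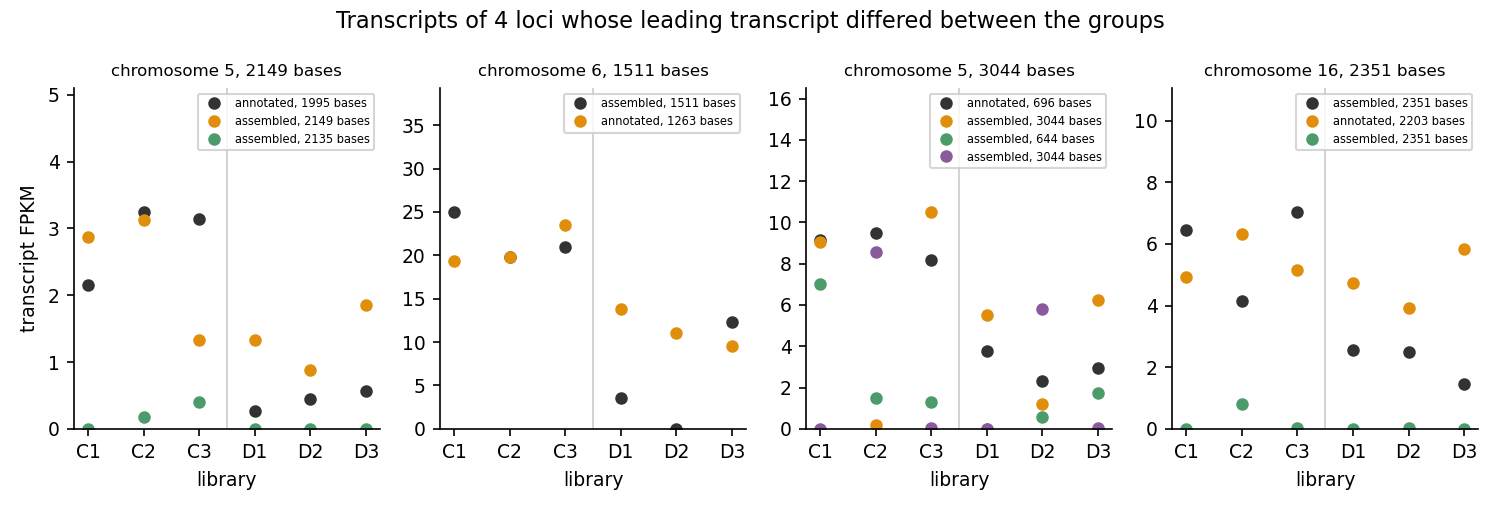
FPKM of each transcript in control replicates 1 to 3 (C1 to C3) and air-dried replicates 1 to 3 (D1 to D3), left and right of the grey line, at the 4 lowered loci whose leading transcript differed between the groups. Bases in the legends are the stretch of genome from transcript start to end. On chromosome 16 the annotated transcript (orange) overlaps between groups, from 4.93 to 6.31 FPKM and from 3.91 to 5.82 FPKM, while the assembled one (black) lies lower in every air-dried library.

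The loci with the most transcripts had the same leading transcript in both groups. The locus with 13 transcripts, on chromosome 9 at 4747942 to 4751122, went from 114, 139 and 129.9 FPKM to 72.4, 73.0 and 71.5 FPKM in sum. One of its annotated transcripts went from 15.3, 20.2 and 15.1 FPKM to 9.64, 7.06 and 8.81 FPKM, and the other stood at 15.2, 19.6 and 3.59 FPKM and at 19.9, 14.4 and 9.45 FPKM. The latter did not separate the groups. At the locus with 12 transcripts, on chromosome 8 at 16765715 to 16772266, FPKM went from 10.9, 12.6 and 11.7 to 6.54, 5.94 and 6.77, and 1 assembled transcript held 59.6% of the signal in control and 56.2% in air-dried leaves. The locus with 11 transcripts, on chromosome 10 at 19879971 to 19885972, went from 22.3, 22.8 and 20.003 FPKM to 7.93, 11.5 and 10.4 FPKM, and its leading assembled transcript held 52.6% and 57.9%. Loci on chromosome 8 at 5231909 to 5237680 (39.9, 40.5 and 39.2 to 24.3, 23.5 and 23.4 FPKM) and on chromosome 1 at 33386299 to 33389831 (74.9, 64.8 and 70.9 to 40.1, 37.2 and 36.5 FPKM) kept their leading transcript at 93.0% and 95.0%, and at 71.4% and 73.3%, of the sum. In each of these last 4 a single transcript held most of the sum in both groups. That did not hold at the locus with 13 transcripts, where the leading one, assembled, held 40.3% in control and 50.4% in air-dried leaves. At the locus on chromosome 9 at 1242309 to 1246446, also among those with the most transcripts, the leading one held 45.7% and 36.6%. Another transcript there held 33.9% in air-dried leaves.

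The lowered loci were scattered over the genome and over both strands. They lay on 18 of the 19 numbered chromosomes, 53 on the plus and 47 on the minus strand, with none among the 469 comparable loci of chromosome 18 and none among the 205 on scaffolds. The share per chromosome reached 1.61% on chromosome 19 (5 of 311), 1.45% on chromosome 4 (10 of 690) and 1.26% on chromosome 8 (10 of 795), and was 0.254% on chromosome 17 (1 of 393). Of the 100, 86 overlapped no other locus and 12 overlapped one on the opposite strand. Strandedness of the libraries was not given in the sources used here. Reads of overlapping loci can therefore not be assigned with certainty. On chromosome 1, the lowered locus at 16583813 to 16585192 went from 59.2, 45.6 and 56.7 FPKM to 18.5, 17.9 and 19.9 FPKM. A locus of 398 bases within it, on the opposite strand, went from 86.0, 48.1 and 76.8 to 40.3, 28.9 and 27.6 FPKM. That pair was chosen after its values were seen. The low control replicate 2 is common to both loci.

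No lowered loci were immediate neighbours among all 40537 loci, but some were next to each other once silent loci were passed over. Among the tested loci, 3 pairs of lowered loci were adjacent, so that 6 of the 100 had a lowered locus as a neighbour, against 0.907% of the other comparable loci. The pairs and neighbourhoods described here were chosen after their values were seen. On the plus strand of chromosome 2, the loci at 22447102 to 22447777 and 22451210 to 22452035 described above lay 3432 bases apart, with 1 locus listed at 0 in every library between them. On the plus strand of chromosome 19, the locus at 4213661 to 4217341 went from 49.9, 40.5 and 52.4 FPKM to 20.3, 17.6 and 19.3 FPKM. Its partner at 4234607 to 4237030, 17265 bases away, went from 20.7, 18.2 and 20.2 FPKM to 11.3, 10.55 and 9.36 FPKM. Here too the 1 locus between them was listed at 0 in every library.

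Chromosome 6 held 3 lowered loci in a stretch with little other signal. The locus at 17996366 to 17997876 went from 44.3, 39.5 and 44.5 FPKM to 17.4, 11.1 and 21.8 FPKM in sum. The next, at 18074879 to 18081844, went from 15.8, 15.0 and 15.4 FPKM to 5.61, 4.53 and 4.996 FPKM, and the third, at 18145061 to 18147647 on the plus strand, from 7.44, 7.68 and 7.79 FPKM to 4.33, 3.49 and 3.09 FPKM. Gaps of 77002 and 63216 bases separated them. Of the 3 loci in between, 2 stayed below the filter and the other, a locus of 234 bases, was listed at 0, 3.76 and 8.57 FPKM in control and at 30.2, 0 and 0 FPKM in air-dried leaves.

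On the minus strand of chromosome 4, lowered loci lay close to each other with other loci among them. The locus at 17487575 to 17488283 went from 25.5, 16.2 and 21.0 FPKM to 9.78, 8.55 and 9.10 FPKM, and the locus at 17513575 to 17514109 from 43.9, 30.8 and 44.7 FPKM to 17.2, 11.8 and 10.8 FPKM. Between them, the locus at 17493215 to 17497082 stood at 17.8, 15.8 and 15.4 FPKM and at 20.3, 21.5 and 17.7 FPKM, so all its air-dried values but one were above every control value. A locus of 22797 bases at 17538339 to 17561135, too long for the rule, was also lower, at 5.26, 9.22 and 6.63 FPKM against 2.59, 2.92 and 2.14 FPKM. Within it, a locus of 347 bases at 17546840 to 17547186, too short for the rule, went from 7.35, 4.55 and 4.88 FPKM to 0.902, 1.21 and 1.13 FPKM. Fitted over all tested loci, the 192 tested neighbours of lowered loci that were not lowered loci themselves had a median log2 change of 0.03, against 0.07 for all tested loci, and 10 of the 192 (5.21%) were called lower, against 2.81% of all.

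**Figure D5:**
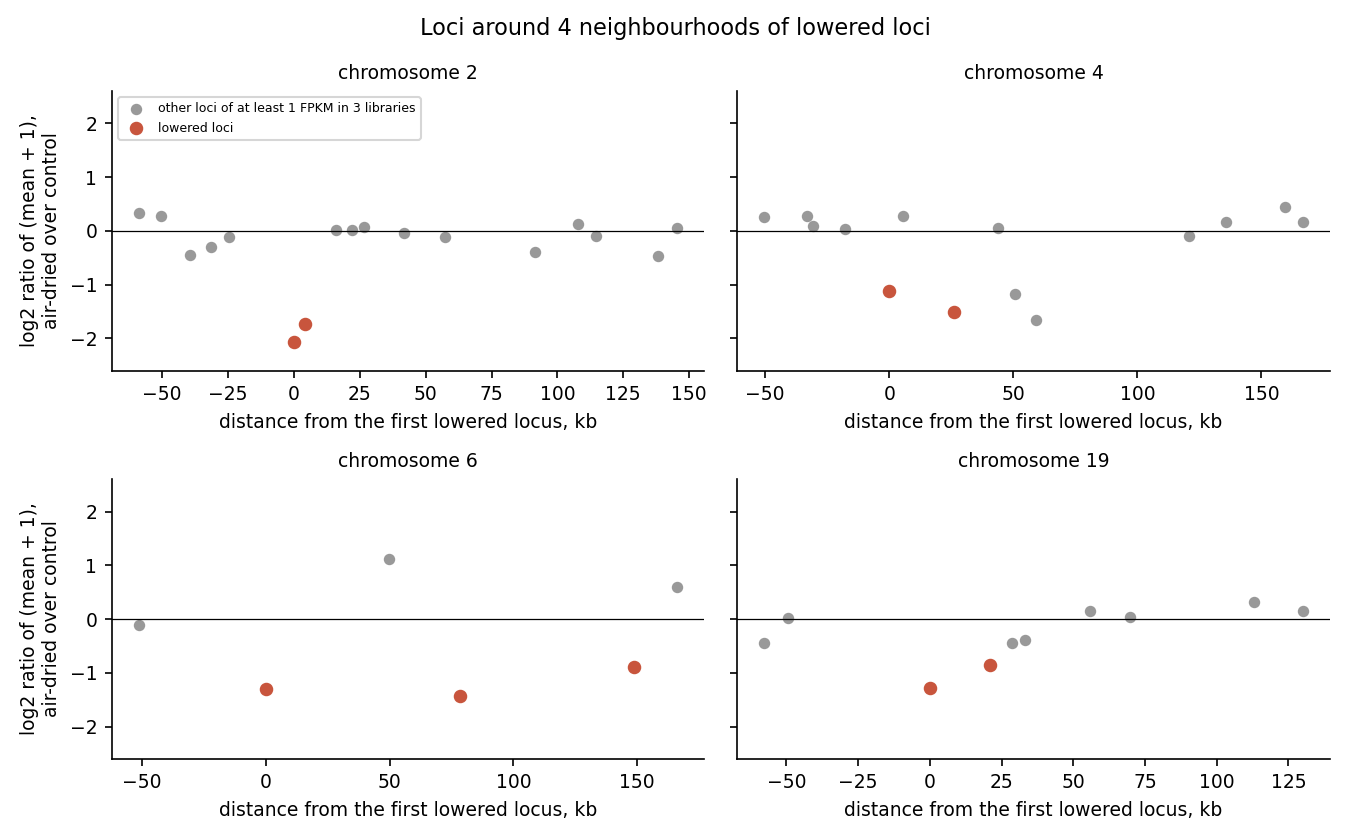
Change of each tested locus around 4 neighbourhoods of lowered loci, as the log2 ratio of mean FPKM + 1 in air-dried over control leaves (vertical), against the distance of its start from the first lowered locus in kilobases (horizontal). The 9 lowered loci (red) lie below 0 by construction. Of the 38 other loci (grey), 3 were called lower, against 2.81% of all tested loci, in neighbourhoods chosen after their values were seen.

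The limit of 0.65 cuts through a continuous range of values. Just inside it, the locus on chromosome 16 at 12184909 to 12187259 had a highest air-dried value of 0.6499 times its lowest control value. The others were on chromosome 5 at 24292293 to 24293236 (138, 128 and 111 to 56.6, 72.1 and 69.7 FPKM, at 0.6496) and on chromosome 14 at 8997297 to 8999978 (36.4, 34.7 and 34.0 to 22.0, 19.98 and 20.1 FPKM, at 0.6488). Just outside it were loci on chromosome 7 at 11966467 to 11970349 (13.4, 11.2 and 16.1 to 7.32, 6.87 and 6.33 FPKM, at 0.652), chromosome 4 at 2162702 to 2164304 (5.31, 6.09 and 4.86 to 2.64, 2.16 and 3.17 FPKM, at 0.653) and chromosome 11 at 18529628 to 18533230 (9.20, 9.28 and 8.86 to 5.79, 5.33 and 4.76 FPKM, at 0.654). The first 2 of the loci outside had lower ratios of means, 0.503 and 0.491, than the 3 inside, at 0.526 to 0.604.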

How the data were processed

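The authors deposited FPKM per transcript, per the file headers, for 112919 transcripts in each of 6 libraries. TopHat and Cufflinks are named in the submitters' processing notes, without versions. A build, an annotation and strandedness were not given in the sources used here. Libraries were TruSeq poly(A) from 2 µg of RNA, read as 100 bp paired ends, per the labels' protocols. The files hold no counts, so depth is unknown and no counting interval is given. FPKM are relative to each library's total, so a change of other transcripts can shift them.

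Transcripts were summed per locus, the rule was applied as stated, and limma 3.58.1 in R 4.3.3 (mean-variance trend, two-sided, no covariates, checked on simulated data) was fitted on log2(FPKM + 1) to the 22729 loci that reached 1 FPKM in 3 or more libraries. Fitted changes understate those of weak loci. Figures used matplotlib 3.10.9. Loci and lists were chosen with earlier results of these data known. Loci named are those with the lowest ratios (12), the highest control means (6), the most transcripts (6), adjacent pairs among all loci (of which there were 0), a changed leading transcript (4 found) or values nearest the limit (3 on each side), unless said to be chosen after their values were seen. The lists of gene products were not used here, for lack of gene names. Alternatives were the pseudocount, filter, scaling, replicate block, library weights, each library left out, the ratio limit and which transcripts were summed.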

Additional observations from a re-analysis of the deposited data

How the results depend on the processing

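The 100 lowered loci were below control in the fit under each of the 15 alternatives that tested them, and 82 were called lower under every one. The matching share of all tested loci was not counted. The lowered loci were chosen on these same values, so nothing is read from either count. The highest log2 change of the lowered loci was -0.65 as reported and between -0.77 and -0.39 under the alternatives. After upper-quartile scaling and after quantile normalization, the median of all tested loci was -0.05 rather than 0.07, and the number of loci meeting the rule moved from 100 to 168 and 176. With a ratio limit of 0.6 it was 61, with 0.5 it was 19, and with group means in place of extremes it was 294. Leaving out 1 library can only loosen the comparison of extremes, and it gave 119 to 149. Summing only annotated transcripts, an alternative chosen after seeing the data, gave 80, of which 62 were among the 100.

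Loci called lower among all tested, 638 as reported, were 1031 after median-of-ratios scaling (1315 higher), 1308 after upper-quartile scaling (1111 higher), 1191 after quantile normalization (996 higher), 2108 with library weights and 231 to 688 without 1 library (238, 317 and 231 without control replicates 1, 2 and 3, and 300 and 237 without air-dried replicates 2 and 3); the cause was not tested. As reported, 1655 were higher. With the replicate number as a block, 175 loci and 91 of the 100 lowered loci were called lower. Same-numbered libraries correlated in their deviations by 0.117, 0.226 and -0.148 over 21622 loci, not every library best with its own number, so the numbers were not taken as pairs.

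Of 403 values of 27 named loci under alternatives 0 changed direction. The loci were chosen on these same values, so nothing is read from that 0. At 6 loci, 18 of the values lost the call. The locus on chromosome 2 at 22451210 lost it without control replicates 1, 2 and 3, without air-dried replicates 2 and 3 and with no filter (limma, adjusted p from 0.0600 to 0.138), and that on chromosome 6 at 17996366 without control replicates 1, 2 and 3 (0.0806, 0.0599 and 0.0781). On chromosome 5, the loci at 12216707 and 24292293 lost it with the replicate block (0.0638 and 0.0568). Of the loci just outside the ratio limit, that on chromosome 7 at 11966467 lost it with the block and without control replicate 1, air-dried replicate 2 or air-dried replicate 3 (0.0515 to 0.0618), and that on chromosome 4 at 2162702 with the block and without control replicate 1 or 2 (0.0625 to 0.0862).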

Other observations

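Of all 40537 loci, 310 had a highest air-dried value at or under 0.65 times a lowest control value above 0. Most of those outside the chosen window were weak: 196 averaged under 5 FPKM in control leaves. None averaged 300 FPKM or more. Of those within the level window, 6 spanned under 500 bases, 5 spanned over 8000 bases and 3 of suitable span carried no POPTR transcript. The most abundant of the long ones, on chromosome 2 at 592711 to 601049, went from 137, 155 and 153 FPKM to 83.3, 76.2 and 85.8 FPKM. Another, on chromosome 9 at 6455746 to 6501168, went from 114, 119.5 and 122 FPKM to 73.2, 73.7 and 69.0 FPKM. Both had spreads within groups that were small beside the gap between them. Both were picked with their values in view.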
